A study of Mus musculus with 12 samples.

Results

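Transcript levels of 38 genes for metalloproteases and their inhibitors were examined in mouse inner medullary collecting duct cells (mIMCD3), out of 47642 genes in the table. The members were taken by name and not by a cut on their values, but with earlier results of these data known. They were 10 secreted and 7 membrane-bound matrix metalloproteases (MMPs), 7 ADAMs and 9 ADAMTSs. The inhibitors among them were 4 tissue inhibitors of metalloproteases (TIMPs) and the membrane-anchored Reck. The groups were wild-type cells, Pkd1-/- cells, in which CRISPR removed most of Pkd1, and Pkd2-/- cells, in which TALENs removed several middle exons of Pkd2. Pkd1 and Pkd2 encode polycystin-1 and polycystin-2, and their human counterparts are the main genes of autosomal dominant polycystic kidney disease. RNA was sequenced from 4 of the 6 dishes grown per genotype, 4 days after full confluency, and no other treatment was given. All 3 groups derive from the same immortalized line, which carries the SV40 early region from the transgenic mice that it was isolated from. Each mutant was 1 clone, so the spread between libraries is that between dishes of a line and does not include the variation between clones.

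MMPs are zinc-dependent proteases that cleave collagens, laminins and other matrix proteins, and they are made as inactive precursors. TIMPs bind the active site of MMPs and of some ADAMs, and Reck restrains several MMPs at the cell surface. ADAMs sit in the membrane and release the outer part of other membrane proteins, such as growth factor precursors and Notch receptors, whereas ADAMTSs are secreted and cut proteoglycans or take part in building fibrillin microfibrils. In the kidney, these enzymes remodel the tubular basement membrane and the interstitium.

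The values are normalized counts, which are read counts divided by a size factor of each library and rounded by the authors. The libraries sum to 25966273 to 28027792 normalized counts, and the reads behind them were estimated at 23204607 to 30352415. Pkd1 was at 782 ± 112 (SD, n = 4) normalized counts in wild-type and at 41.8 ± 8.81 in Pkd1-/- libraries. Pkd2 was at 3971 ± 451 in wild-type and 3986 ± 124 in Pkd2-/- libraries, a value that checks no label, since most exons of Pkd2 lie outside the deletion. Of 15 markers of collecting duct and tubular epithelium, 10 had a mean of at least 1000 normalized counts, whereas Aqp2, the water channel of principal cells, was at 0 in all 12 libraries and Avpr2 had a mean of 0.25. Of the 13 epithelial markers tested, 2 were called in Pkd1-/- cells and 1 in Pkd2-/- cells, against 6.24% and 9.62% of all tested genes. Among them was Krt19, which fell in both mutants by 1.75 and 1.66 on the log2 scale. With the adjusted p alone, 4 of the 13 passed in Pkd1-/- and 11 in Pkd2-/- cells, against 27.1% and 42.3% of all tested genes. Markers of endothelium summed to at most 9 in any library. Counting limits are given as for reads without molecular identifiers and cover counting error only.

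Sequences are shown first for genes of the MMP cluster on chromosome 9, where Mmp13, Mmp12, Mmp3, Mmp10 and Mmp7 lie in this order with gaps of 46.4 to 182 kb. Mmp13, Mmp3 and Mmp10 encode a collagenase and the stromelysins 1 and 2. None of these 5 genes held more than 5 normalized counts in any library. Promoters from 250 bases before to 50 bases after an annotated start were taken from RefSeq (GRCm38.p6), which gave 30 promoters for 25 of the 38 members. Capitals mark matches to the AP-1 motif TGANTCA and to the TATA box TATAAA, searched on both strands.
Mmp13, chr9:7272264-7272563, plus strand: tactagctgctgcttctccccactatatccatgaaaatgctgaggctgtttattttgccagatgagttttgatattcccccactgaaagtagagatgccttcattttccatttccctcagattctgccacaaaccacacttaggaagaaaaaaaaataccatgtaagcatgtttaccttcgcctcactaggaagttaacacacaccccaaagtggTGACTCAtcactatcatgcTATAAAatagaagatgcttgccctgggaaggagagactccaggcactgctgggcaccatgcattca
Mmp3, chr9:7445572-7445871, plus strand: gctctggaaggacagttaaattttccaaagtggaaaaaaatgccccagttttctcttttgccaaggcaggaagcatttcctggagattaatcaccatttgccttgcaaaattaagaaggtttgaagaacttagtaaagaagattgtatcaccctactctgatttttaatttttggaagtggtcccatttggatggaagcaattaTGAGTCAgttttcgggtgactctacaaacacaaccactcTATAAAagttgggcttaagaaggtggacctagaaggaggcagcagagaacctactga
Mmp10, chr9:7502092-7502391, plus strand: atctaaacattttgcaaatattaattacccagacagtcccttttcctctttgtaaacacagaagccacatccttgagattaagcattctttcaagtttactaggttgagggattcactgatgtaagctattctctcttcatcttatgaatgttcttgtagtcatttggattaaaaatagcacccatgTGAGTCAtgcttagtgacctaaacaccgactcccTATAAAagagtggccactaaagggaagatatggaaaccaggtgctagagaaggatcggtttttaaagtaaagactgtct
All 5 cluster genes have a promoter in which an AP-1 match, starting between bases 188 and 216 counted from the 5′ end, is followed by a TATA box starting between bases 222 and 255. Among 32851 promoters of the same length, 7.81% held the AP-1 motif and 13.6% the TATA box, against 6 of the 30 members' promoters for each. For each motif, 5 of these 6 are the cluster's promoters just described. The other is that of Adam19 for AP-1 and of Adamts1 for the TATA box, so these counts do not describe members outside the cluster. Letters that match a motif are a description of the sequence and do not show that a factor binds there.

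Adamts1, Mmp15 and Reck had the largest log2 fold changes among members with over 100 normalized counts in wild-type cells, and their promoters are shown for comparison. Capitals mark the TATA box and the GC box, which reads GGGCGG on the strand shown or CCGCCC where it lies on the other strand.
Adamts1, chr16:85803064-85803363, minus strand: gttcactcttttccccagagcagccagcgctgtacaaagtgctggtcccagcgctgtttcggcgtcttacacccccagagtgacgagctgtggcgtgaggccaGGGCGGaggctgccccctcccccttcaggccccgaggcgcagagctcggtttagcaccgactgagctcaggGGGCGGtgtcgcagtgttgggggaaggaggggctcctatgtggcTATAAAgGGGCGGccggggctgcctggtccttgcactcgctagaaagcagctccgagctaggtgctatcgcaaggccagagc
Mmp15, chr8:95352046-95352345, plus strand: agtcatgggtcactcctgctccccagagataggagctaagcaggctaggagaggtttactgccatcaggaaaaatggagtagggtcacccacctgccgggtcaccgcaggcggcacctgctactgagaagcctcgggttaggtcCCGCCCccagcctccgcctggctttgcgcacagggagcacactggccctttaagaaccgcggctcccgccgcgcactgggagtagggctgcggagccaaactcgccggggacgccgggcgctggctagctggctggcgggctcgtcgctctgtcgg
Reck, chr4:43875280-43875579, plus strand: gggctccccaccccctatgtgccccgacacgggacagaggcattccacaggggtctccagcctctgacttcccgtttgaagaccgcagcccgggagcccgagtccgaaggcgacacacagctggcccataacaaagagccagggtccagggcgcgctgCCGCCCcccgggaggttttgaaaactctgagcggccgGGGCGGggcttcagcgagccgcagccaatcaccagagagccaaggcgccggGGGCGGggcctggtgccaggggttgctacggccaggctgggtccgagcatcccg
Adamts1 holds 3 GC boxes and a TATA box, Mmp15 holds 1 GC box and Reck holds 3, and none of these promoters holds an AP-1 match. The GC box was found in 18 of the 30 members' promoters and in 35.7% of all promoters. The cyclic AMP response element TGACGTCA was in 0 of the 30, against 1.79% of all promoters. None of the letters searched lies within another of the motifs, and no matches overlap in the promoters printed.

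Levels can be compared between genes only per length, here as normalized counts per kb of annotated exon. By this measure Timp2, a secreted inhibitor found in most tissues, was the most abundant member in wild-type cells, with a mean of 3344 per kb, and made up 40.4% of the summed level of the 38 members. Adamts1, a secreted protease that cuts aggrecan and versican, came next at 1216 per kb, before the disintegrin proteases Adam10, Adam9, Adam15 and Adam17 at 875, 795, 660 and 502 per kb. Mmp11, or stromelysin-3, accounted for 94.4% of the summed level of the secreted MMPs in wild-type cells. The membrane-bound MMPs were low, with a summed level of 51.5 per kb, of which Mmp15 had 46.3.

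**Figure D1:**
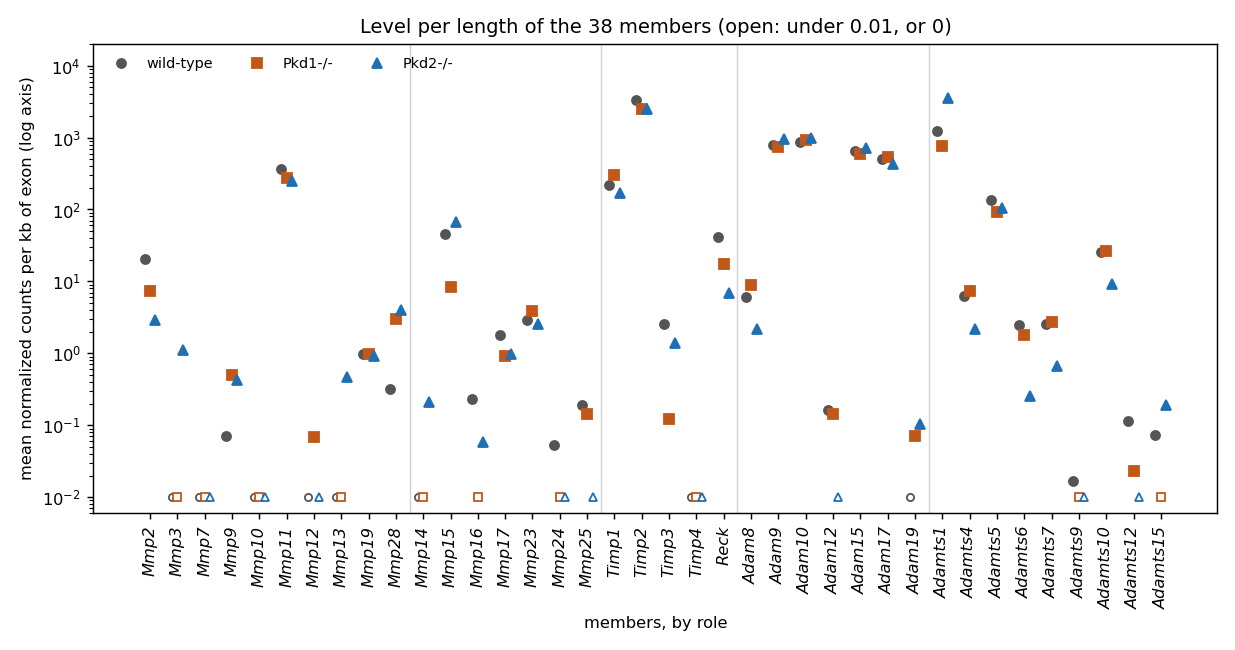
Mean normalized counts per kb of exon (log axis) of the 38 members in wild-type (grey circles), Pkd1-/- (orange squares) and Pkd2-/- cells (blue triangles), ordered by role; open symbols at the bottom stand for 0. Timp2, Adamts1, Adam9, Adam10, Adam15 and Adam17 were the most abundant members, and Adamts1 exceeded Timp2 only in Pkd2-/- cells, at 3527 against 2462 per kb.

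Of the 38 members, 24 had a mean of at least 1 normalized count over the 12 libraries and were tested. The other 14 held at most 5 normalized counts in any library: Mmp3, Mmp7, Mmp10, Mmp12, Mmp13, Mmp14, Mmp16, Mmp24, Mmp25, Timp4, Adam19, Adamts9, Adamts12 and Adamts15. Mmp7, Mmp10 and Timp4 were at 0 in every library, and a count of 0 allows up to 3 counts in a library. Mmp14, the membrane-type protease that activates Mmp2, had 0 counts in all libraries but Pkd2-/- replicate 3, where it had 5.

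Differences between genotypes were assessed in limma using log2(normalized count + 1), a scale that understates the change of low genes. A gene was called when its adjusted p was below 0.05 and its level differed at least 2-fold, which is 1 on the log2 scale, up or down. In Pkd1-/- cells, 5 of the 24 tested members were called against wild-type, where 6.24% of all tested genes were called. Mmp28 rose (2.96% of all tested genes were called higher), whereas Mmp2, Mmp15, Timp3 and Reck fell (3.28% called lower). In Pkd2-/- cells, 9 of 24 were called, where the share among all tested genes was 9.62%. Mmp28 and Adamts1 rose (3.24% called higher), and Mmp2, Reck, Adam8, Adamts4, Adamts6, Adamts7 and Adamts10 fell (6.38% called lower). With the adjusted p alone, 11 members in Pkd1-/- and 17 in Pkd2-/- cells passed, against 27.1% and 42.3% of all tested genes. The median log2 fold change of the 24 members was −0.04 in Pkd1-/- cells, where that of all tested genes was 0.01, and −0.45 in Pkd2-/- cells, where that of all tested genes was −0.01. Groups of 4 libraries that do not overlap are common in these data. Against wild-type, they were found for 11 of the 24 members in Pkd1-/- and 16 in Pkd2-/- cells. Among all tested genes, the shares were 27.1% and 37.2%. Between the mutants, 14 members had such groups, against 41.8% of all tested genes. Both comparisons with wild-type use the same wild-type libraries. In RNA from a whole dish, fewer cells that express a gene and less RNA per cell cannot be told apart.

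**Figure D2:**
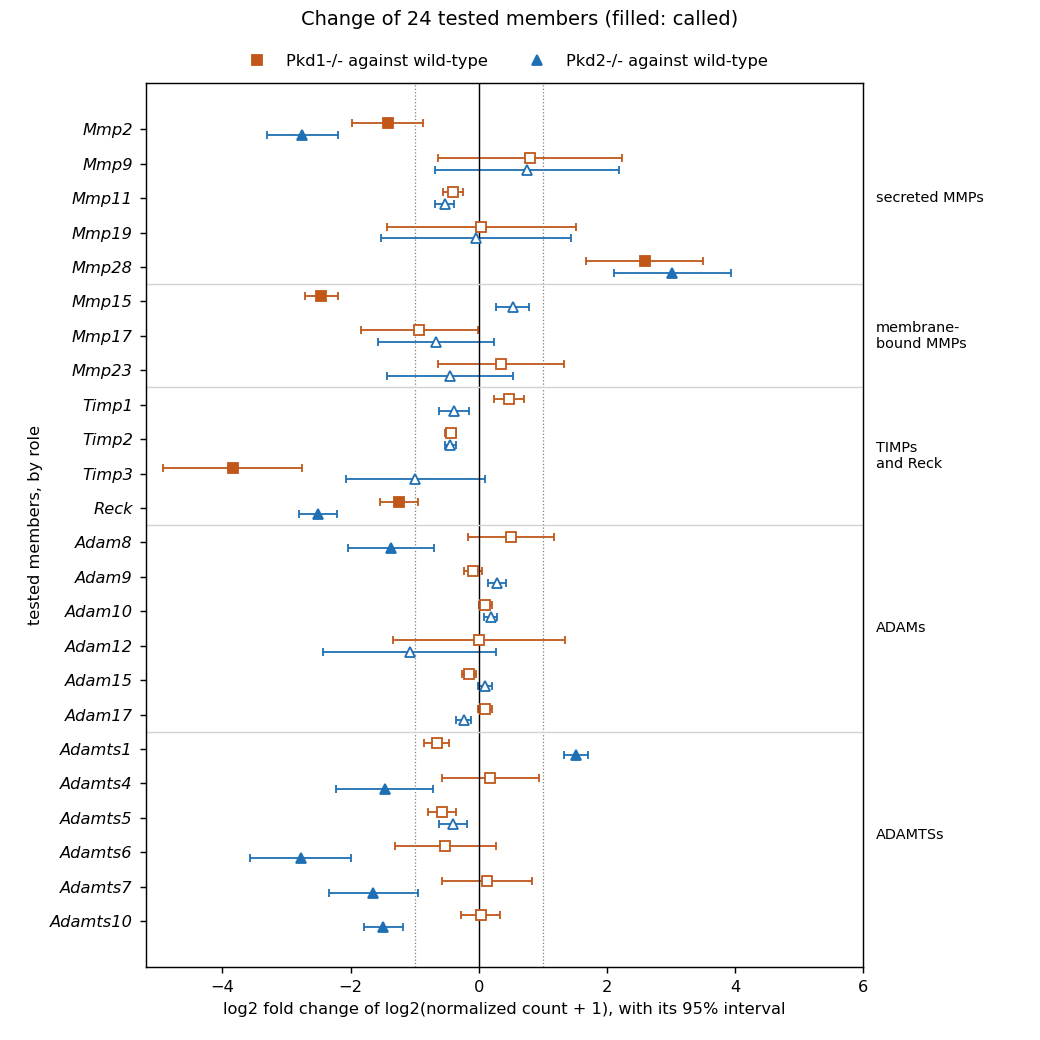
Log2 fold change against wild-type of the 24 tested members, by role, in Pkd1-/- (orange squares) and Pkd2-/- cells (blue triangles); bars are 95% intervals from limma, filled symbols are called and dotted lines mark a log2 fold change of 1 in either direction. Mmp2 and Reck lie left of 0 in both mutants and Mmp28 lies right of 0, while Mmp15 and Adamts1 lie on opposite sides.

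Among the secreted MMPs, Mmp2 and Mmp28 were called in both mutants, in opposite directions. Mmp2, or gelatinase A, which digests type IV collagen of basement membranes, was at 58, 78, 70 and 67 normalized counts in the wild-type libraries, at 30, 22, 20 and 28 in Pkd1-/- and at 5, 13, 12 and 9 in Pkd2-/- libraries. The 3 groups did not overlap, with Pkd2-/- lowest. Its log2 fold change was −1.42 in Pkd1-/- (95% interval −1.98 to −0.87, adjusted p = 0.000421) and −2.75 in Pkd2-/- cells (−3.31 to −2.19, adjusted p = 9.34e-08), both from limma. Mmp2 is also made by fibroblasts, and the 8 fibroblast markers summed to 32 to 58 normalized counts in wild-type, 89 to 103 in Pkd1-/- and 15 to 141 in Pkd2-/- libraries. The sums in Pkd1-/- libraries came mostly from Col3a1, at 62 to 69 against 3 to 7 in wild-type libraries, and the highest sum in Pkd2-/- libraries was that of replicate 3, with 31 counts of Col1a1, 44 of Col1a2 and 42 of Col3a1. Dcn of this list was at 17 to 40 normalized counts in wild-type, 18 to 23 in Pkd1-/- and 11 to 24 in Pkd2-/- libraries. Its log2 fold changes of −0.28 and −0.63 did not pass the adjusted p in limma. Pdgfrb, at 0 to 4 in wild-type and 1 to 3 in Pkd1-/- libraries, was at 0 in all Pkd2-/- libraries. Limma called it lower there, with a log2 fold change of −1.56 (adjusted p = 0.0269). Its mean over the 12 libraries was only 1.5, and the wild-type and Pkd2-/- libraries overlapped at 0. The exact permutation test gave p = 0.143, so this call does not show a fall. Thy1, a fibroblast surface marker, was at 0 in all libraries, and the part of these genes' cells in the Mmp2 values was not tested.

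Mmp28, or epilysin, was at 1, 1, 3 and 0 normalized counts in wild-type libraries, at 6, 15, 10 and 16 in Pkd1-/- and at 20, 10, 14 and 19 in Pkd2-/- libraries. All mutant libraries lay above all wild-type libraries, and the mutants overlapped each other. Summed over the libraries, the counts were 9.40 times those of wild-type in Pkd1-/- (95% counting interval 3.76 to 30.3) and 12.6 times in Pkd2-/- cells (5.12 to 40.1). Log2 fold changes from limma were 2.59 (adjusted p = 0.000148) and 3.02 (adjusted p = 1.42e-05), and they fell to 1.40 and 1.72 with a pseudocount of 5. Mmp28 shares 466 of its 3874 exon bases with 1700020L24Rik on the opposite strand, which had a mean of 0.25 in wild-type, against 4.5 in Pkd1-/- and 3 in Pkd2-/- libraries. Whether reads were counted by strand is not given in the sources used here, so reads from such an overlap cannot be assigned with certainty.

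Mmp11, the main secreted MMP, was at 1009 ± 108 (SD, n = 4) normalized counts in wild-type, against 760.5 ± 25.4 in Pkd1-/- and 695 ± 31.1 in Pkd2-/- libraries. Its log2 fold changes of −0.40 and −0.53 had adjusted p of 0.000259 and 6.11e-06 in limma and were below the fold required for a call. It shares 155 exon bases with Chchd10 on the opposite strand, which had a mean of 2227 normalized counts over the 12 libraries. The summed level of the 10 secreted MMPs per kb was 385 ± 40.8 (SD, n = 4) in wild-type, against 286 ± 7.14 in Pkd1-/- and 260 ± 12.8 in Pkd2-/- cells. Mmp11 made up 94.4%, 95.8% and 96.2% of these sums. The gelatinase Mmp9 had at most a mean of 1.75 normalized counts in any genotype, and Mmp19 had 3.25 to 3.5, and neither passed the adjusted p.

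Mmp15 was the only one of the 3 tested membrane-bound MMPs that was called. It encodes MT2-MMP, which sits in the membrane and can activate the precursor of Mmp2. The wild-type libraries held 286, 236, 237 and 241 normalized counts, the Pkd1-/- libraries 35, 50, 51 and 44, and the Pkd2-/- libraries 387, 351, 344 and 360. The 3 groups were fully separated, with Pkd1-/- cells at 18.0% of the wild-type mean and Pkd2-/- cells at 144%. The log2 fold change of Pkd1-/- cells was −2.46 (95% interval −2.71 to −2.20, adjusted p = 1.81e-11 from limma). That of Pkd2-/- cells was 0.53 (0.27 to 0.78, adjusted p = 0.0015), below the fold required for a call. The summed level of the 7 membrane-bound MMPs followed Mmp15, at 51.5 ± 4.51 (SD, n = 4) per kb in wild-type, against 13.2 ± 1.76 in Pkd1-/- and 70.6 ± 5.30 in Pkd2-/- cells. Among tubular markers, Gata3 of the collecting duct had means of 227, 48.5 and 354 normalized counts in wild-type, Pkd1-/- and Pkd2-/- libraries, and Lrp2 of the proximal tubule had 508, 46.3 and 934.5, with wild-type between the mutants as for Mmp15. The 5 proximal tubule markers together summed to 692 to 790, 584 to 672 and 1017 to 1499, where Aqp1 rose in Pkd1-/- cells (log2 fold change 1.32) and Slc34a1 was at 0 throughout. Cubn of this list had means of 3.75, 8.0 and 4.0 in the same order. Of the 13 tested collecting duct and tubular markers, 0 passed the adjusted p higher and 4 lower in Pkd1-/- cells. In Pkd2-/- cells, 8 passed higher, and Epcam, Krt19 and Hoxb7 passed lower. Among all tested genes, 27.1% and 42.3% passed in these comparisons. Whether these markers bear on the Mmp15 values was not tested. Around Mmp15, 34 genes within 1 Mb were tested. In Pkd1-/- cells only Pllp of these was also called, and their median was 0.04 on the log2 scale. In Pkd2-/- cells Nlrc5, Adgrg3, Kifc3 and Ndrg4 were called, 3 of them in the direction of Mmp15, and the median was −0.02. Between the mutants 5 were called, 4 of them in the direction of Mmp15. The shares of all tested genes called in these comparisons were 6.24%, 9.62% and 11.8%.

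Among the inhibitors, Reck fell in both mutants and Timp3 in Pkd1-/- cells, and the abundant Timp2 was not called. Reck was at 187, 212, 200 and 186 normalized counts in wild-type libraries, 82, 87, 98 and 65 in Pkd1-/- and 34, 35, 31 and 34 in Pkd2-/- libraries. These groups did not overlap, and Pkd2-/- cells were lowest, as for Mmp2, which is among the proteases that Reck restrains. Limma gave log2 fold changes of −1.24 (95% interval −1.54 to −0.95, adjusted p = 1.63e-06) and −2.51 (−2.81 to −2.22, adjusted p = 4.63e-11). The 38 tested genes within 1 Mb of Reck had medians of 0.00 in Pkd1-/- and −0.10 in Pkd2-/- cells on the same scale. Among them, Car9, Tpm2, Npr2 and Glipr2 were called in Pkd1-/- cells, 2 of them lower, and Car9 and Glipr2 were called lower in Pkd2-/- cells. The shares of all tested genes called were 6.24% and 9.62%.

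Timp3 is held in the matrix and inhibits Adam17 as well as MMPs. It was at 21, 18, 22 and 21 normalized counts in wild-type, 0, 4, 0 and 0 in Pkd1-/- and 16, 18, 5 and 6 in Pkd2-/- libraries. The Pkd1-/- libraries lay below all others, and the Pkd2-/- libraries fell into a higher and a lower pair, of which the higher pair reached the lowest wild-type value. Wild-type counts summed to 20.5 times those of Pkd1-/- cells (95% counting interval 7.71 to 77.0), and the log2 fold change was −3.84 (adjusted p = 1.29e-05 from limma), or −2.14 with a pseudocount of 5 and −4.60 with 0.5. In Pkd2-/- cells the log2 fold change of −0.99 did not pass (95% interval −2.07 to 0.09, adjusted p = 0.137). Timp3 shares 21.3% of its exon bases with Syn3 on the opposite strand, which had a mean of 5.08 over the 12 libraries.

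Timp2 was at 13028 ± 329 (SD, n = 4) normalized counts in wild-type, against 9604 ± 123 in Pkd1-/- and 9592 ± 464 in Pkd2-/- libraries. Its log2 fold changes of −0.44 in Pkd1-/- and −0.44 in Pkd2-/- cells had adjusted p of 2.19e-07 and 9.47e-08 in limma, and were below the fold required, and the 95% interval of the difference between the mutants was −0.09 to 0.09. Timp1, a secreted inhibitor of broad range, was at 194.5 ± 12.4, 270 ± 31.7 and 149.5 ± 19.7 (SD, n = 4), with log2 fold changes of 0.47 in Pkd1-/- (adjusted p = 0.00353) and −0.38 in Pkd2-/- cells (adjusted p = 0.00885). Summed per kb, the TIMPs and Reck were at 3606 ± 82.3 (SD, n = 4) in wild-type, against 2787 ± 41.9 in Pkd1-/- and 2639 ± 104 in Pkd2-/- cells.

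Among the 6 tested ADAMs, only Adam8 was called, in Pkd2-/- cells. Adam8, a protease known from leukocytes, was at 19, 23, 37 and 33 normalized counts in wild-type, 19, 44, 48 and 56 in Pkd1-/- and 7, 11, 10 and 12 in Pkd2-/- libraries. The Pkd2-/- libraries lay below all others, while wild-type and Pkd1-/- libraries overlapped. It fell in Pkd2-/- cells by 1.37 on the log2 scale (SE 0.32, adjusted p = 0.00171 from limma), and its value in Pkd1-/- cells was 0.50 (95% interval −0.17 to 1.18, adjusted p = 0.28). Leukocyte markers summed to 893 to 1000 normalized counts in wild-type, 428 to 652 in Pkd1-/- and 732 to 826 in Pkd2-/- libraries, most of it from Csf1r, while Adgre1, Itgam and Cd3e of these 6 markers were at 0 throughout. Cd68 had means of 61.75, 57.0 and 57.5 in the same order and passed in neither mutant. Ptprc had means of 3.0, 0.25 and 2.0. Limma called it lower in Pkd1-/- cells (log2 fold change −1.62, adjusted p = 0.0451), but these libraries overlapped wild-type at counts near 0. Whether these markers bear on the Adam8 values was not tested.

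Adam10, which releases Notch and cadherin domains, Adam17, which releases tumor necrosis factor and ligands of the EGF receptor, and the related Adam9 and Adam15 were at means between 3046 and 4891 normalized counts in every genotype. Only Adam15 of these 4 genes passed the adjusted p in Pkd1-/- cells, with a log2 fold change of −0.16 (adjusted p = 0.0289 from limma). In Pkd2-/- cells, Adam9 was at 0.28, Adam10 at 0.19 and Adam17 at −0.24, with adjusted p of 0.00205, 0.00388 and 0.0014. For all 4 genes, the 95% intervals of both comparisons lay between −0.35 and 0.42, so that changes of the size required for a call are outside them. The summed level of the ADAMs per kb was 2838 ± 138 (SD, n = 4) in wild-type, against 2822 ± 98.9 in Pkd1-/- and 3098 ± 87.2 in Pkd2-/- cells.

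Of the 6 tested ADAMTSs, 5 were called in Pkd2-/- cells, 1 higher and 4 lower, with a median log2 fold change of −1.48. Among all tested genes, 9.62% were called, 3.24% higher and 6.38% lower, and the median was −0.01. Limma called 0 of 6 in Pkd1-/- cells, against 6.24% of all tested genes, and the median of the 6 was −0.25. With the adjusted p alone, 2 of them passed in Pkd1-/- cells (33.3%), against 27.1% of all tested genes. In Pkd2-/- cells 6 of 6 passed, against 42.3%. Adamts1 was at 6128, 6201, 6502 and 6957 normalized counts in wild-type libraries, at 3813, 4316, 3962 and 4278 in Pkd1-/- and at 15894, 17895, 16872 and 24137 in Pkd2-/- libraries. The groups were separate, with wild-type between the mutants, and Pkd2-/- replicate 4 stood above the other Pkd2-/- libraries. The mean of Pkd2-/- cells was 2.90 times that of wild-type, with a log2 fold change of 1.52 (95% interval 1.32 to 1.71, adjusted p = 1.45e-10 from limma), and it was 1.39 without Pkd2-/- replicate 4. In Pkd1-/- cells the log2 fold change was −0.66 (−0.85 to −0.46, adjusted p = 2.18e-05), below the fold required.

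Adamts5, an aggrecanase whose gene lies 53.1 kb from Adamts1 on chromosome 16, was not called in either mutant. It was at 1467 ± 167 (SD, n = 4) normalized counts in wild-type, against 983.5 ± 35.7 in Pkd1-/- and 1119 ± 213 in Pkd2-/- libraries, with log2 fold changes of −0.57 (adjusted p = 0.000357 from limma) and −0.40 (adjusted p = 0.00405). The summed level of ADAMTSs per kb was 1389 ± 85.6 (SD, n = 4) in wild-type, against 901 ± 53.5 in Pkd1-/- and 3643 ± 714 in Pkd2-/- cells, of which Adamts1 made up 87.5%, 85.6% and 96.8%.

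The 4 ADAMTSs that fell in Pkd2-/- cells were much less abundant. Adamts10, which binds fibrillin-1 in microfibrils, was at 199, 223, 225 and 208 normalized counts in wild-type, 225, 248, 174 and 233 in Pkd1-/- and 68, 61, 102 and 76 in Pkd2-/- libraries. The Pkd2-/- libraries lay below all others, and the remaining groups overlapped. Its log2 fold change was −1.49 in Pkd2-/- (95% interval −1.80 to −1.18, adjusted p = 1.12e-07 from limma) and 0.03 in Pkd1-/- cells (−0.28 to 0.34, adjusted p = 0.914). Adamts6, its closest relative in the family, was at 26, 17, 21 and 14, at 6, 20, 15 and 15, and at 3, 1, 2 and 2 normalized counts in wild-type, Pkd1-/- and Pkd2-/- libraries. Wild-type counts summed to 9.75 times those of Pkd2-/- cells (95% counting interval 4.71 to 23.4), with a log2 fold change of −2.78 (adjusted p = 6.64e-06 from limma), or −1.79 with a pseudocount of 5. In Pkd1-/- cells, whose libraries overlapped wild-type, its log2 fold change was −0.52 (adjusted p = 0.347).

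Adamts4, an aggrecanase that also cuts versican, was at 37, 19, 39 and 25 normalized counts in wild-type, 16, 45, 37 and 43 in Pkd1-/- and 11, 16, 10 and 5 in Pkd2-/- libraries. All Pkd2-/- libraries were below the wild-type libraries, and 1 of them equaled the lowest Pkd1-/- library. It fell in Pkd2-/- cells by 1.47 on the log2 scale (SE 0.36, adjusted p = 0.00272 from limma). Adamts7, which cuts the cartilage protein COMP, was at 11, 10, 19 and 25, at 19, 16, 21 and 12, and at 5, 4, 5 and 3 normalized counts in the same order. Its Pkd2-/- libraries lay below all others, and it fell by 1.64 on the log2 scale (SE 0.33, adjusted p = 0.000518 from limma). Neither gene passed in Pkd1-/- cells, with log2 fold changes of 0.18 for Adamts4 and 0.13 for Adamts7. Adamts7 shares 122 exon bases with Tbc1d2b on the opposite strand, which had a mean of 522 normalized counts over the 12 libraries.

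**Figure D3:**
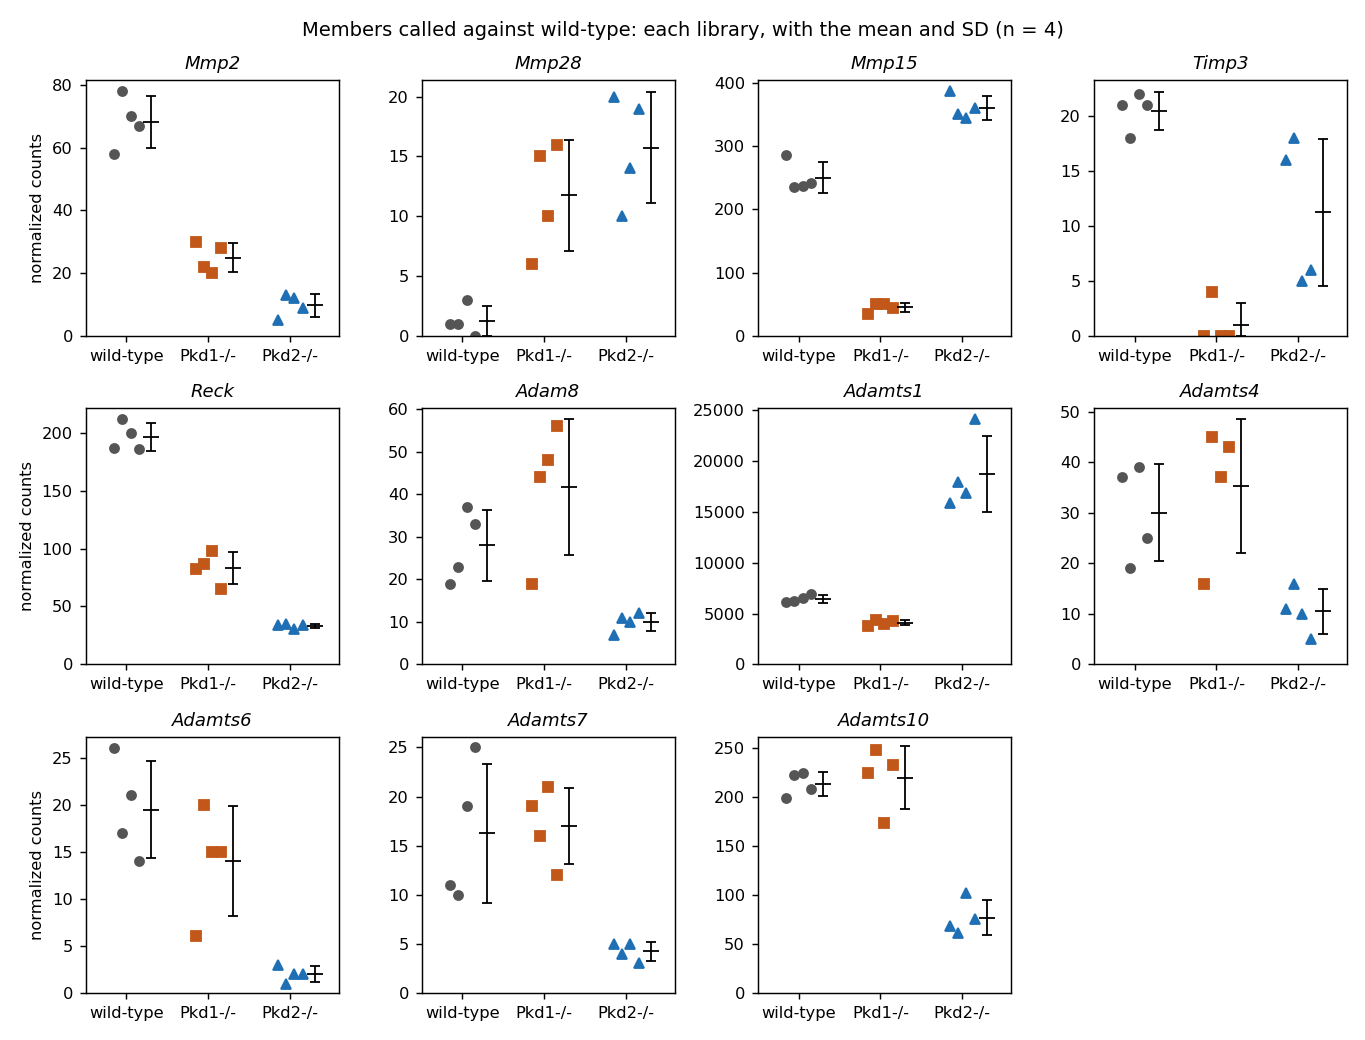
Normalized counts in each library of the 11 members that were called in at least 1 mutant, with the mean and SD (n = 4) beside the points; the axes differ between genes, and bars that would reach below 0 end there. Mmp15 and Adamts1 show wild-type between the mutants, Mmp2 and Reck step down from wild-type to Pkd1-/- to Pkd2-/- cells, and Adam8, Adamts4, Adamts6, Adamts7 and Adamts10 have their lowest means in Pkd2-/- cells.

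The mutants were also compared directly, since an effect called in 1 mutant and not in the other is not shown to differ by that alone. It called 10 of the 24 tested members, where 11.8% of all tested genes were called, and 14 passed the adjusted p alone, against 46.3%. Mmp15, Timp3 and Adamts1 were higher in Pkd2-/- than in Pkd1-/- cells (4.53% of all tested genes were called higher), and Mmp2, Reck, Adam8, Adamts4, Adamts6, Adamts7 and Adamts10 were lower (7.23% called lower). The largest ratios of means among members with at least 30 normalized counts in each mutant were those of Mmp15, 8.01 times higher in Pkd2-/- cells, and Adamts1, 4.57 times higher. Mmp2 and Reck fell further in Pkd2-/- cells, with log2 differences of −1.33 (adjusted p = 0.000379) and −1.27 (adjusted p = 4.65e-07 from limma) between the mutants. For Mmp28, the difference between the mutants was 0.43 with a 95% interval of −0.48 to 1.34 (adjusted p = 0.456), which does not show that they were alike.

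Genes that act with the members were taken from 5 lists with 64 genes. Their counts are to be read against the 6.24% and 9.62% of all tested genes called in Pkd1-/- and Pkd2-/- cells. For activation and clearance of metalloproteases, 2 of 11 tested genes were called in Pkd1-/- cells, and the 1 of 11 (9.09%) called in Pkd2-/- cells is a share near that of all genes. Plau, or urokinase, which starts the plasmin cascade that activates several MMPs, was at 1164 to 1348 normalized counts in wild-type, 598 to 644 in Pkd1-/- and 1223 to 1462 in Pkd2-/- libraries. It fell in Pkd1-/- cells by 1.02 on the log2 scale (SE 0.07, adjusted p = 8.23e-10 from limma). Plaur, the receptor that holds urokinase at the cell surface, was at 334 to 406, 280 to 380 and 789 to 1008 normalized counts in the same order and rose in Pkd2-/- cells (log2 fold change 1.30, SE 0.10, adjusted p = 3.93e-09). Pcsk5, a proprotein convertase, held at most 1 count in wild-type and 2 to 6 in Pkd1-/- libraries, and 0 in Pkd2-/- libraries. It is the other gene called in Pkd1-/- cells, but it passed the filter on low values only through these libraries, so its call shows nothing.

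Partners that carry ADAM10 and ADAM17 to the cell surface gave 1 call among 8 tested genes in Pkd1-/- and 0 in Pkd2-/- cells by limma. With the adjusted p alone, 3 of 8 passed in Pkd1-/- cells (37.5%), against 27.1% of all tested genes. In Pkd2-/- cells 4 of 8 passed (50%), a share near the 42.3% of all tested genes. Tspan15, a tetraspanin that steers ADAM10 to its substrates, was at 750 to 890 normalized counts in wild-type, 359 to 417 in Pkd1-/- and 470 to 552 in Pkd2-/- libraries, and fell in Pkd1-/- cells by 1.06 on the log2 scale (SE 0.08, adjusted p = 3.02e-09 from limma). Its value in Pkd2-/- cells was −0.68 (adjusted p = 5.17e-07), below the fold required. Of 6 tested EGF receptor ligands that ADAMs release, limma called 0 in either mutant. With the adjusted p alone, 0 passed in Pkd1-/- and 2 in Pkd2-/- cells (33.3%), against 27.1% and 42.3% of all tested genes. Tgfa and Hbegf, named after their values were seen, passed the adjusted p in Pkd2-/- cells at log2 fold changes of 0.95 (adjusted p = 7.63e-11 from limma) and 0.92 (adjusted p = 1.01e-06), just below the fold required.

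Among the aggrecan family only Vcan was tested. Versican, its product, is a substrate of Adamts1, Adamts4 and Adamts5. Its counts were 2, 5, 1 and 2 in wild-type, 16, 12, 18 and 17 in Pkd1-/- and 2, 2, 2 and 6 in Pkd2-/- libraries, and the Pkd1-/- libraries lay above all others. The counts in Pkd1-/- cells summed to 6.30 times those in wild-type (95% counting interval 3.21 to 13.8), with a log2 fold change of 2.36 (adjusted p = 0.000243 from limma). Of 29 further MMP, ADAM and ADAMTS genes, 8 were tested, and only Adamts17 was called against wild-type, with a fall of 1.13 on the log2 scale in Pkd2-/- cells (SE 0.33, adjusted p = 0.00842 from limma) from 15 to 24 normalized counts in wild-type to 5 to 13.

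**Figure D4:**
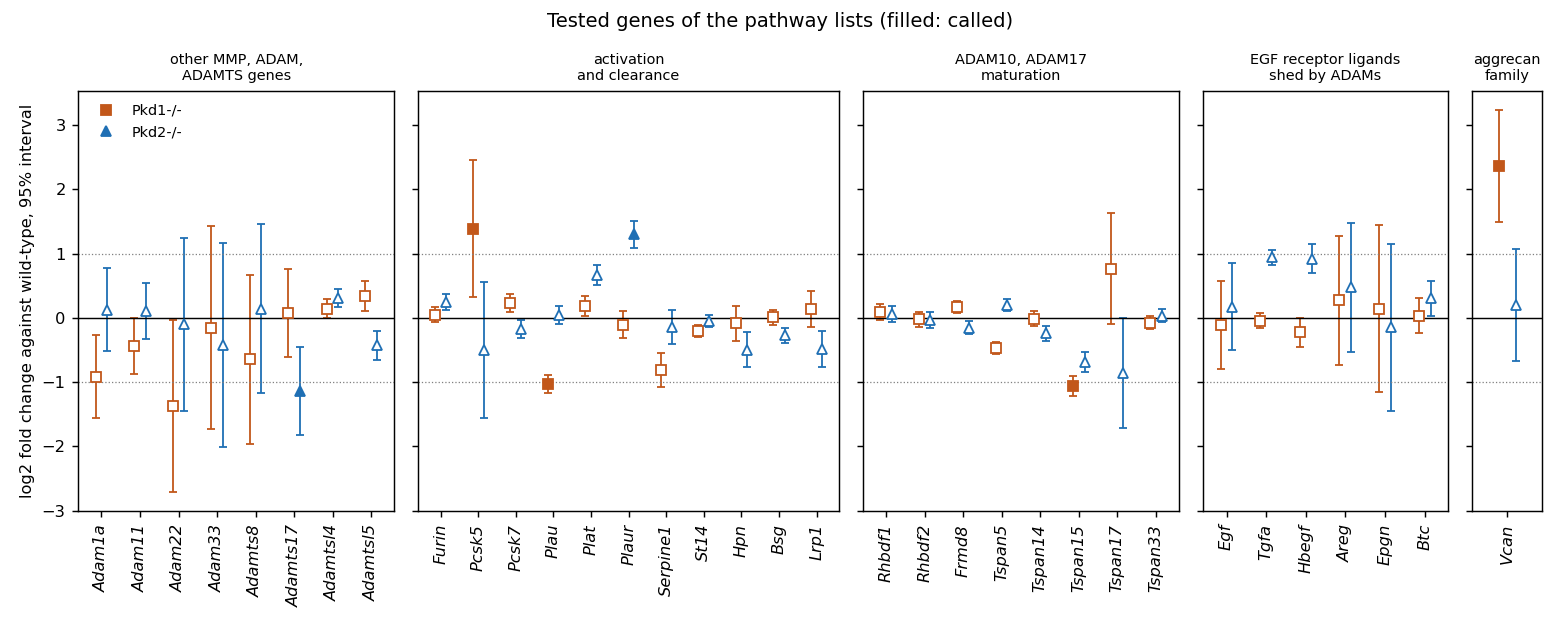
Log2 fold change against wild-type of the tested genes of the 5 pathway lists in Pkd1-/- (orange squares) and Pkd2-/- cells (blue triangles), with 95% intervals from limma; filled symbols are called. The filled symbols are Plau, Tspan15, Vcan and Pcsk5 (kept by the filter only through its Pkd1-/- libraries) in Pkd1-/- and Plaur and Adamts17 in Pkd2-/- cells, and the open symbols of Tgfa and Hbegf lie just under 1 in Pkd2-/- cells.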

How the data were processed

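RNA-seq libraries of mIMCD3 cells were grouped by their labels into 3 genotypes of 4 libraries each. Trim Galore (trimming), HISAT2 (alignment to GRCm38), htseq-count and the size factors of DESeq2 gave normalized counts, which the authors rounded to whole numbers. These deposited values have the unit score here, and count models were not used. Genes were annotated with GENCODE M21, in which 47223 of the 47642 identifiers were found. With limma 3.58.1 in R 4.3.3 (lmFit, contrasts.fit, eBayes with a trend), log2(normalized count + 1) was fitted for 18552 genes whose mean was 1 or more, all 12 libraries in 1 model. Two-sided p-values were adjusted per comparison (Benjamini-Hochberg). Counting intervals were exact 95% intervals and, like the floor of 3 counts for a 0, cover counting error only. The fit was tested on simulated data. Members and lists were chosen with earlier results of these data known. Full statistics are given for members called against wild-type, and pathway genes are named where called. Same-numbered libraries of different genotypes had correlated deviations of −0.07 to 0.20, and 2 of 12 pairs were over 0.1, so numbers were not treated as pairs. Alternatives were pseudocounts of 0.5 and 5, no filter or a minimum mean of 10, a replicate block, only the genotypes compared, upper quartile rescaling, and leaving out each library. A result that needs a withheld item is not reported here.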

Additional observations from a re-analysis of the deposited data

Results flagged for a closer look

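Mmp15 in wild-type cells had a library that stood apart, replicate 1 at 286 normalized counts against 236 to 241 in the others, a gap of 0.9 of the group's range, above Dixon's critical value at the 95% level for 4 samples. It was the only one of 53 groups of members flagged, and chance flags about 1 in 20 such groups. For 6 members the log2 fold changes against wild-type had opposite signs in the mutants, at least 1 of them was called, and the mutants also differed by both thresholds in limma's direct comparison. The log2 difference of Pkd2-/- minus Pkd1-/- cells was 2.99 for Mmp15 and 2.17 for Adamts1. It was −1.88 for Adam8, −1.65 for Adamts4, −1.77 for Adamts7 and −1.52 for Adamts10. For the last 4 genes, the log2 fold change of Pkd1-/- cells against wild-type did not pass the test, so its sign is not resolved.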

How the results depend on the processing

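All 14 calls of members against wild-type kept their direction and passed both thresholds in 264 of 264 alternative values, and Mmp28 has no value with a minimum mean of 10. Members called ranged from 4 to 6 in Pkd1-/- and from 8 to 9 in Pkd2-/- cells against wild-type, and from 10 to 11 between the mutants. Over all genes, a minimum mean of 10 lowered the calls in Pkd1-/- cells from 1158 to 739, with fewer genes tested. Values of members not called in Pkd1-/- cells changed sign when 1 library was left out: Adamts4 ranged from −0.0105 (without wild-type replicate 2) to 0.51, Adamts7 from −0.0601 (negative without wild-type replicate 1 or 2) to 0.35, and Adamts10 from −0.0308 (negative without wild-type replicate 1 or Pkd1-/- replicate 2 or 4) to 0.14, all on the log2 scale. With the replicate block, the members called stayed at 5, 9 and 10, and all genes called were 1170 and 1790 against wild-type and 2183 between the mutants. It changed no call of a named member. The pairing has at most a weak hint in the data. A library was compared with the 4 libraries of another genotype, and in 4 of 12 such comparisons it correlated best with its own number. Without pairing, 1 in 4 would do so. The highest same-number correlations were those of replicate 4, at 0.20 between wild-type and Pkd2-/- and 0.17 between the mutants. Depth limits the 6 called members with a mean under 30 normalized counts, Mmp28, Timp3, Adam8, Adamts4, Adamts6 and Adamts7.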
